A study of Homo sapiens with 28 samples.

Results

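The chromatin of 47 genes of the unfolded protein response and the secretory machinery was examined in myeloma cell lines by ATAC-seq, which tags open DNA with a transposase and sequences the tagged fragments. Their regions were taken from a table of 154985 accessible regions as those whose nearest transcription start carried the gene's symbol, which gave 213 regions near 42 of the 47 genes. Of these, 39 overlapped a start and were counted as promoter regions, against 18012 such regions in the table, and 174 lay away from it and were counted as distal, against 136973. The promoter regions belonged to 34 genes.

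The libraries were 22 untreated myeloma cell lines, each a culture of 1 line assayed once, and 6 of these lines (Karpas620, KMS27, L363, MM1S, OPM2 and RPMI8226) at day 3 of 10 µM lenalidomide, a drug that redirects the ubiquitin ligase subunit cereblon to the transcription factors IKZF1 and IKZF3. Nothing was repeated within a line, and every spread given below is therefore between lines. KMS12BM and KMS12PE, derived from the same patient, were counted as separate lines. Untreated libraries held 1599857 to 5564534 counts in regions and lenalidomide libraries 2168680 to 4248017. The share of counts in promoter regions ran from 37.1% in H1112 to 57.3% in KMS27 among untreated libraries. All 7 plasma cell markers searched had a promoter region, and their summed level was 154 to 356 counts per 1000000 counts in regions (CPM) in the untreated lines. Of these, 5 were called in at least 20 lines, IRF4 in 18 and SLAMF7 in only 2 (mean 6.18 CPM). None of 3 monocyte markers had a promoter region, and the 2 T cell markers with one summed to 0.459 to 7.63 CPM. The 3 epithelial markers summed to 0.624 to 81.8 CPM, with EPCAM called in 9 lines (mean 12.5 CPM), KRT8 in 6 and CDH1 in 2. Their part in the levels below was not tested. The paper states that ATAC-seq was done on viable sorted cells, so cells that were not viable are not represented. Levels are averages over the sorted cells of a line. In them, fewer cells with an open region and less open chromatin per cell cannot be told apart.

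Proteins destined for secretion enter the endoplasmic reticulum (ER) through the SEC61 channel and are folded there by chaperones, lectins and disulfide isomerases, and those that fail are sent back to the cytosol for degradation. When unfolded proteins accumulate, the sensors ERN1 (IRE1), EIF2AK3 (PERK) and ATF6 in the ER membrane raise the transcription of this machinery. Plasma cells, the normal counterpart of myeloma, secrete antibody in bulk and depend on this response, which is one reason why proteasome inhibitors are used against the disease.

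The promoters of the chaperone genes are the classic targets of the response, through the ER stress response element (ERSE), in which CCAAT and CCACG stand 9 bases apart, and ERSE-II, in which ATTGG and CCACG stand 1 base apart. RefSeq promoter windows (GRCh38.p14, 250 bases before to 50 after the start) were found for 42 of the 47 genes, and DERL1, DERL3, PDIA3, SEC24D and SPCS1 were not matched. An exact ERSE on either strand was present in 6 of the 42 windows and in 21 of 26246 autosomal windows (0.08%), and an exact ERSE-II in 3 of the 42 and in 14 of all windows (0.0533%). Thus 9 genes held one or the other: HSPA5, HSP90B1, CRELD2, CANX, CALR and ERO1LB an ERSE, and HYOU1, HERPUD1 and SDF2L1 an ERSE-II. All 9 windows matched GRCh37, the build of the regions, letter for letter at 1 place and lay whole within the start region of their gene. The 6 windows below, shown because they hold the elements by which this response is known to act on chaperone genes, are written 5′ to 3′ on the strand of the gene, with the element in capitals. On the opposite strand an ERSE reads CGTGG, 9 bases, ATTGG and an ERSE-II reads CGTGG, 1 base, CCAAT.
HSPA5: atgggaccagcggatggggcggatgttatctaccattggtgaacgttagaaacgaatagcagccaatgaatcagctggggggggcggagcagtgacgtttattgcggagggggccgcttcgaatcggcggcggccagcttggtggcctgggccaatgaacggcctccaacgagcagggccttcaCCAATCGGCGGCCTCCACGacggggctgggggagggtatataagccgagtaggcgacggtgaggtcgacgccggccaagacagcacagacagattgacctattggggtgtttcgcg
HSP90B1: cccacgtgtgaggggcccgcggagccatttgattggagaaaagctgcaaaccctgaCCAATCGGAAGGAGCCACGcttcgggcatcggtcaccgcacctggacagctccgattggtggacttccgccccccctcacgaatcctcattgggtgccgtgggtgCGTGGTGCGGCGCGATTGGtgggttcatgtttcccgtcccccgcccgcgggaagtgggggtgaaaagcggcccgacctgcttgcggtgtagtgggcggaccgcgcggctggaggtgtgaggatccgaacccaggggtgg
CRELD2: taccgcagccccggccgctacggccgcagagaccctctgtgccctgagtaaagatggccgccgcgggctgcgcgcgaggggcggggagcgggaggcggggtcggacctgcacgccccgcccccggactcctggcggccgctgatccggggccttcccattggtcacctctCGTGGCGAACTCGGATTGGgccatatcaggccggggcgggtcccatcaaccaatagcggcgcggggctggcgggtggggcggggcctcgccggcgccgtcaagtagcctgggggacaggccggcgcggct
CANX: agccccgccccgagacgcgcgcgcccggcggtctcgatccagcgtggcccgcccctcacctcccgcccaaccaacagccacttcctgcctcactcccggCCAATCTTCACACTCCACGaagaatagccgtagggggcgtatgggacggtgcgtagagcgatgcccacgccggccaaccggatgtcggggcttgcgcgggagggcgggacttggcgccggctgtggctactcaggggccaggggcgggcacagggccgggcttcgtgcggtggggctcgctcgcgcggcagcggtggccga
HYOU1: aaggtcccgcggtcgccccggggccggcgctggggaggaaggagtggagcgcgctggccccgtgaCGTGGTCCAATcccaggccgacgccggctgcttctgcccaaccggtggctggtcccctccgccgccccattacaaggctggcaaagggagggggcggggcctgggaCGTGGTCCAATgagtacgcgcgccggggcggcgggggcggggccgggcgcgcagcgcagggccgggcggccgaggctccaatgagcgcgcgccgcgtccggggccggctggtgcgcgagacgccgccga
HERPUD1: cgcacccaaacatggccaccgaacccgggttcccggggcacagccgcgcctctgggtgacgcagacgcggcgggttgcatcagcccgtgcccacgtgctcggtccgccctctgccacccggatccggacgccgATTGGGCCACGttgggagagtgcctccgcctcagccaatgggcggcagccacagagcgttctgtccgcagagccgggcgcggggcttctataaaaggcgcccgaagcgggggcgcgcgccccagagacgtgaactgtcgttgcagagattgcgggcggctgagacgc
The windows lie at chr9:128003573-128003872 (HSPA5, minus strand), chr12:104323938-104324237 (HSP90B1, plus), chr22:50312032-50312331 (CRELD2, plus), chr5:179125680-179125979 (CANX, plus), chr11:118927867-118928166 (HYOU1, minus) and chr16:56965804-56966103 (HERPUD1, plus) of GRCh37. HSP90B1 held an ERSE on each strand, and both elements of HYOU1 had the same letters. The CCACG core alone, which is part of ERSE, ERSE-II and, on the opposite strand, UPRE, was found in 29 of the 42 windows (69%) and in 37.9% of all windows. UPRE (TGACGTGG) was found in HYOU1 and SEC62 against 0.781% of all windows, CRE (TGACGTCA) in CREB3L2 against 2% (524 of 26246), and the amino acid response element (TGATGNAAT) in none of the 42 against 1.03%. These are matches of letters and were not tested as binding sites. The 9 genes with an ERSE or ERSE-II had a median start-region level of 40.4 CPM per kb over the untreated lines, and the other 33 matched genes 49.8 CPM per kb.

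Nearly every gene of the group had an accessible start. For 13 genes the table's nearest-start symbol named a neighbour: DNAJC3, SPCS2, DNAJB11, SEC62 and PDIA3 had no region of their own, and HSP90B1, DNAJB9, ATF6, EDEM1, CRELD2, SEC61B, SPCS1 and SRP54 had regions but no promoter region. Each of these 13 was listed by its Ensembl identifier among the genes whose promoter a region overlapped, and that region is described here as its start region. The neighbours were THAP5 for DNAJB9, TBCCD1 for DNAJB11, ALG12 for CRELD2, ALG2 for SEC61B, GLT8D1 for SPCS1, XRRA1 for SPCS2, CATSPER2P1 for PDIA3, DNAJC3-AS1 for DNAJC3 and unnamed transcripts for the others, and accessibility at such shared starts cannot be assigned to 1 gene. Where a gene had several promoter regions, the one with the highest mean was used.

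The 34 genes with a promoter region of their own had a median level of 47.4 CPM per kb of region (range 10.5 to 165.7), against 21.8 CPM per kb over the 15217 genes with a promoter region. Of the 34, 29 lay above that median and 22 above the upper quartile of all genes, 38.0 CPM per kb. Peaks were called at 27 of the 34 (79.4%) in all 22 untreated lines, against 5171 of the 15217 genes (34%). When only promoters called in all 22 lines were compared, the medians were 48.0 CPM per kb for the 27 and 43.7 for the 5171. The 13 starts under a neighbour's symbol had a median of 49.8 CPM per kb and 11 were called in every line. Apart from the single export gene, the medians of the roles ran from 44.1 CPM per kb for entry into the ER to 56.3 for the chaperones, and all 14 genes of ER entry were called in all 22 lines.

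**Figure D1:**
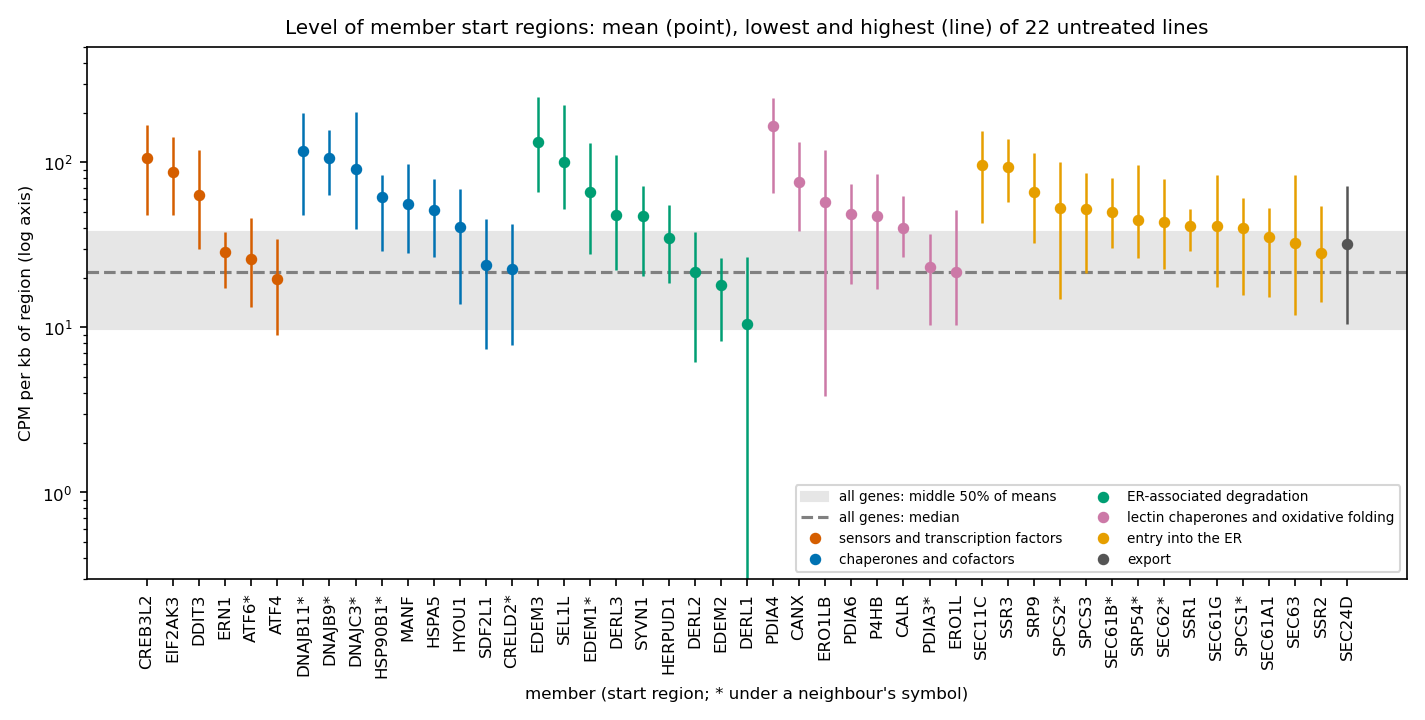
Level of each start region in CPM per kb of region on a log axis, by role and with the mean over 22 untreated lines as a point and the lowest to the highest line as a vertical line. The grey band spans the middle 50% of all genes' means and the dashed line their median of 21.8 CPM per kb, and an asterisk marks a start under a neighbour's symbol. PDIA4 stands highest at 165.7 CPM per kb, and DERL1, whose line starts at 0 below the axis, stands lowest at 10.5.

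Among the sensors and transcription factors, CREB3L2, an ER-anchored activator of secretory genes, had the highest level at 106.1 CPM per kb, and its start region (chr7:137686055-137687395) held 64.7 CPM in the lowest line, H1112, a median of 146.4 and 224.9 in the highest, KMS12PE. EIF2AK3, the kinase that slows translation under ER stress, followed at 87.6 CPM per kb with 60.5 CPM in KMS12BM, a median of 107.6 and 180.1 in KMS27. DDIT3 (CHOP), a transcription factor that promotes cell death in prolonged stress, had 30.6 CPM in KMS26, a median of 57.7 and 122.2 in KMS11. The start of ERN1, the kinase and ribonuclease sensor, was lower at 28.5 CPM per kb, and it differed least among the sensors with 21.9 CPM in OPM2, a median of 35.1 and 47.8 in OCIMY5 (SD 0.32 on the log2(CPM + 1) scale). ATF6, the sensor that is cleaved to release a transcription factor, had 12.6 CPM in PCM6, a median of 23.4 and 43.3 in OPM2, at the start shared with an overlapping transcript. ATF4, the factor translated when EIF2AK3 is active, had the lowest level of these 6 genes at 19.6 CPM per kb. It held 16.5 CPM in KMS12PE, a median of 36.6 and 63.4 in U266, and also had the largest SD of the 6, 0.51. All 6 starts were called in all 22 lines.

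HSPA5 (BiP), the main ER chaperone and the usual reporter of the response, ranked in the middle of the group at 51.6 CPM per kb, higher than 87.5% of all genes. Its only region (chr9:128003046-128004324) held 34.3 CPM in H1112, a median of 62.1 and 101.7 in U266. HSP90B1 (GRP94), the ER paralogue of HSP90, had 58.9 CPM in KMS28, a median of 128.3 and 170.3 in L363 at chr12:104322458-104324489, or 61.7 CPM per kb. DNAJB11, a co-chaperone of BiP, had the highest level of the chaperones at 116.7 CPM per kb, and DNAJB9, another, reached 106.4 with an SD of only 0.35. At the other end were CRELD2, an ER stress-induced factor, at 22.5 CPM per kb, and SDF2L1, which assists BiP, at 23.9. SDF2L1 varied most in this role (SD 0.68), from 6.11 CPM in KMS26 to a median of 20.3 and 37.7 in L363, and had no peak in KMS26, PE1 and RPMI8226. PE1 was the line without a peak at CRELD2, EDEM1 and PDIA6 as well. It had the lowest total (1599857 counts) and 42 of the 47 starts called, while XG-6 had 46 called at 1602855 counts. The part of depth was not tested.

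PDIA4, a disulfide isomerase, had the highest level per kb of all 47 and exceeded 99.97% of all genes, with 68.4 CPM in OCIMY5, a median of 180.2 and 256.9 in KMS18. CANX (calnexin) and CALR (calreticulin), the lectins that hold glycoproteins during folding, had 76.0 and 40.2 CPM per kb. ERO1L, the oxidase that recharges the isomerases, was lowest in this role at 21.6 CPM per kb. Its paralogue ERO1LB, highly expressed in secretory cells, varied most of the 47: its SD of 0.96 was higher than that of 70.5% of all genes.

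The wide spread of ERO1LB came from 1 line. The promoter region (chr1:236444313-236445842) held 5.85 CPM in KMS12PE (23 counts, 95% Wilson interval 3.9 to 8.78 CPM) and no peak was called there, while the other 21 untreated lines ranged from 34.4 CPM in PCM6 to 181.8 in KMS27, around a median of 85.4. KMS12BM, a line derived from the same patient as KMS12PE, had 111.8 CPM (interval 101.6 to 122.9). Other regions within 1 Mb stood at 1.32 times their median in KMS12PE, so the low value was not shared by the neighbourhood. With 1 library per line, it could not be checked in a replicate. The 6 lenalidomide libraries, none of which is KMS12PE, held 76.7 to 163.2 CPM.

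Of the degradation genes, EDEM3, which trims mannose from misfolded glycoproteins, had 133.5 CPM per kb and was second among the 47, with 93.7 CPM in OCIMY5, a median of 157.5 and 349.1 in KMS27. SEL1L, the adaptor of the ligase that marks proteins for degradation, had 101.1 CPM per kb with 43.7 CPM in KMS34, a median of 71.1 and 184.2 in Karpas620, and SYVN1, the ligase itself, had 47.3. EDEM2 was low at 18.02 CPM per kb but was called in every line. DERL1, a membrane protein of the exit channel, was a special case. Its promoter region by symbol was a 122-base stretch at an internal start with a mean of 1.28 CPM and a peak in 1 line, the lowest level of all (10.5 CPM per kb), and it had the largest SD of this role, 0.71. The region at chr8:124053812-124055021, which lists DERL1 under the symbol of its neighbour TBC1D31, held 62.3 CPM in RPMI8226, a median of 122.3 and 226.0 in KMS18, was called in all 22 lines and stood at 99.9 CPM per kb.

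Among the genes of ER entry, SEC11C, a catalytic subunit of the signal peptidase, had the highest level at 96.5 CPM per kb and SSR2, a subunit of the translocon-associated complex, the lowest at 28.1. SSR1 of the same complex was the least variable of the 47 genes, with 33.95 CPM in KMS20, a median of 48.2 and 61.3 in KMS12BM (SD 0.28, higher than only 0.28% of all genes). SEC63, which couples BiP to the channel, varied most in this role (SD 0.62), from 11.6 CPM in PCM6 to 81.9 in KMS18. The single export gene, SEC24D, a cargo-binding subunit of the COPII coat, had 32.1 CPM per kb, with 19.8 CPM in OCIMY5, a median of 58.1 and 135.9 in KMS12PE.

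**Figure D2:**
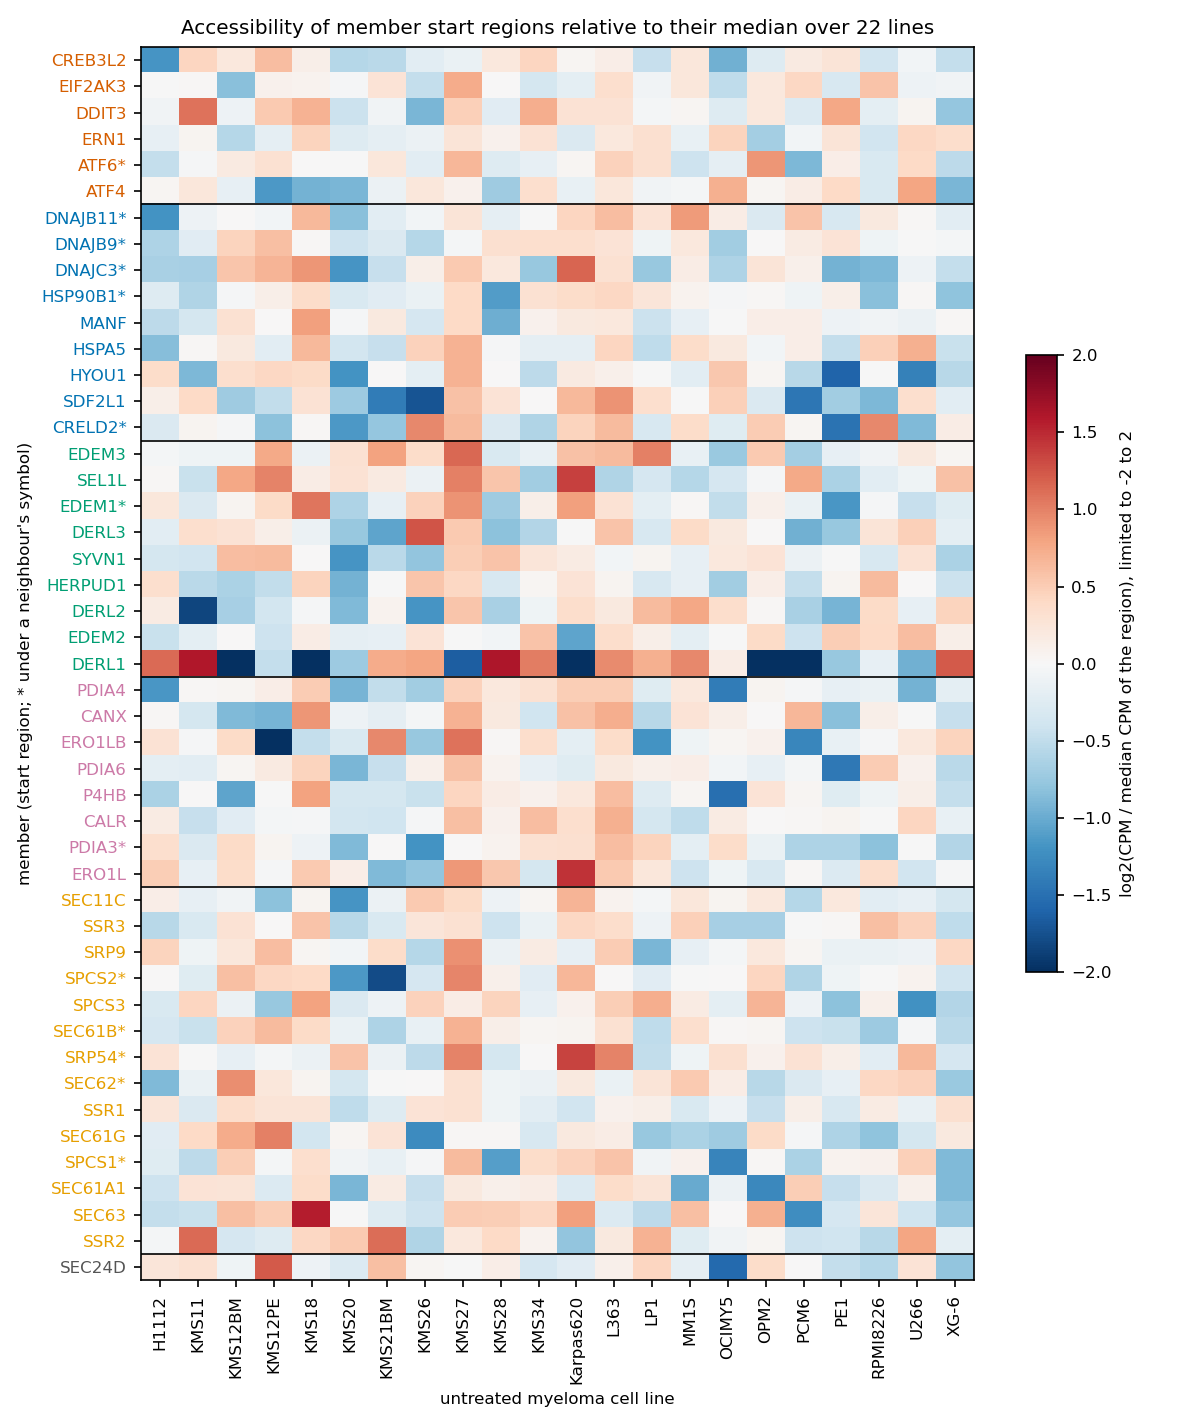
Start regions of the 47 genes (rows, by role, names coloured as roles) in the 22 untreated lines (columns), coloured by log2 of the CPM divided by the region's median over lines, with values beyond 2 in either direction drawn at the limit. Single cells stand out, such as the dark blue ERO1LB in KMS12PE (5.85 CPM) and the red DERL3 in KMS26 (121.0 CPM), against columns such as KMS27 that are mostly red; the DERL1 row rests on a mean of 1.28 CPM.

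Across lines the levels of the genes were only weakly correlated with each other. The summed level of the 34 promoters ran from 1653 CPM in KMS20 to 3133 CPM in KMS27. It followed the share of counts in promoters (r = 0.89, rho = 0.88 over 22 lines). This is a description, since the sum comes from the same libraries and is itself a part of that share. Per 1000000 counts in promoter regions the sums ran from 4188 in KMS20 to 5469 in KMS27. The median correlation between pairs of the 34 promoters over lines was 0.14 on the CPM scale and 0.006 after scaling by promoter totals. Correlations of this kind, and with the promoter share, were not computed for other promoters. They are therefore not shown to be particular to these genes. The median SD of the 34 over lines was 0.51 on the log2(CPM + 1) scale, against 0.67 for all genes and, for genes called in all 22 lines, 0.49 both for the group and overall.

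Much of the spread of a start region was shared with its neighbourhood. For each start region the counts in other regions within 1 Mb were summed, leaving out regions of the same gene, and both levels were divided by their medians over lines. Over 1012 pairs of gene and line (DERL1 left out), the log2 ratios had r = 0.63 and rho = 0.64, across genes and lines that are not independent. When a promoter's level was divided by its neighbourhood, the median SD of the 33 own promoters without DERL1 was 0.32 in place of 0.51, and it was lower in 30 of 33. Over 11410 genes with no count of 0 the median SD went the same way, from 0.61 to 0.47, and it was lower in 85.3% of them. The scaling was added after the data were seen. The copy number of these loci was not measured here, and its part was not tested.

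Some of the highest levels came with high surroundings and others did not. Of 13 start regions, DERL1 left out, that reached at least 2 times their median in some line, 8 had surroundings at 1.5 times or more in that line and 5 had surroundings below 1.4 times. DERL3, a channel protein that is high in plasma cells, had its highest value in KMS26 at 121.0 CPM, 2.39 times the median, where the surroundings were at 2.35 times. DDIT3 in KMS11 was at 2.12 times with surroundings at 2.27 times. All 3 genes on chromosome 14 were highest in Karpas620: SRP54, of the signal recognition particle, at 2.55 times with surroundings at 2.34, ERO1L at 2.71 with 2.19, and SEL1L at 2.59 with 1.33. In contrast SEC24D in KMS12PE was at 2.34 times with surroundings at 0.85, DNAJC3 in Karpas620 at 2.25 with 1.10, EDEM3 in KMS27 at 2.22 with 1.19 and EDEM1 in KMS18 at 2.103 with 1.11. The surroundings pool promoter and distal regions, while the share of counts in promoters differs between lines. That share was 48.4% in KMS12PE, 51.2% in Karpas620, 57.3% in KMS27 and 54.8% in KMS18, against 42.9% in KMS26 and 44.6% in KMS11 (untreated median 45.8%). Its part in these ratios was not tested. On chromosome 22, SDF2L1 and DERL3 lie on opposite sides of the immunoglobulin lambda locus. In KMS26 DERL3 had its highest value of the 22 lines and SDF2L1 its lowest (6.11 CPM, 0.301 times its median, surroundings 0.659 times). That SDF2L1 value rested on 10 counts (95% Wilson interval 3.32 to 11.3 CPM), and PCM6 (7.44 CPM) and KMS21BM (7.74 CPM) lay within that interval. A relation of these values to the locus was not tested.

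**Figure D3:**
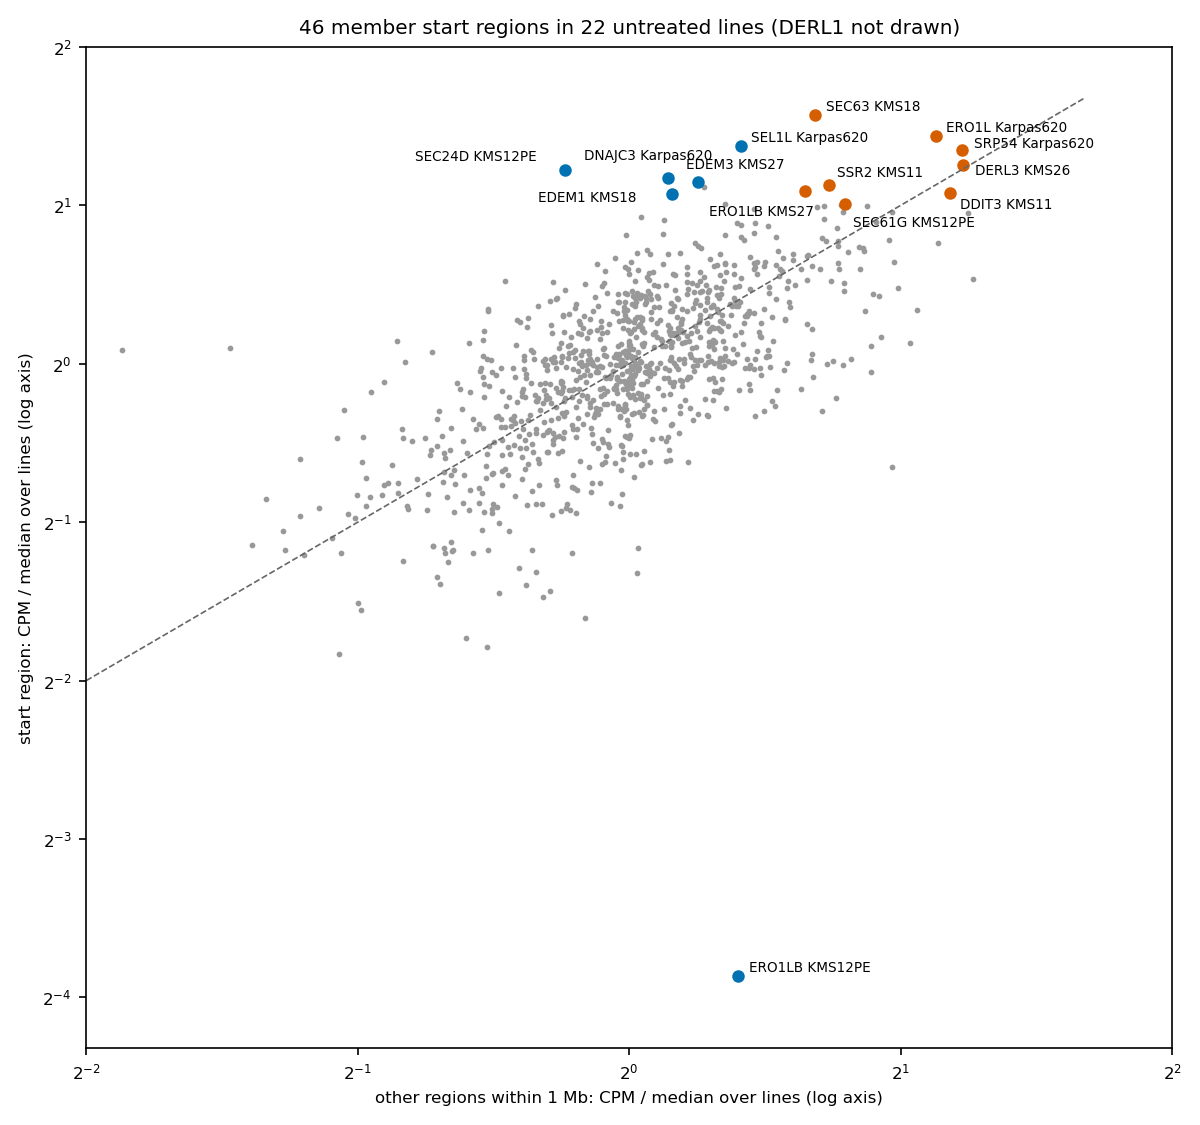
Level of 46 start regions in 22 untreated lines relative to the median over lines (y) against that of the other regions within 1 Mb (x), both on log axes, with 1 point per gene and line and the dashed line marking equal ratios. Labelled points are the highest line of genes that reached 2 times their median, orange where the surroundings were at 1.5 times or more and blue where they were lower, and ERO1LB in KMS12PE, which lies far below the rest at 0.0685 times its median.

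Distal regions were more specific to lines than promoters, as they were across the table. The 174 distal regions lay near 35 of the genes, with a median distance of 9270 bases from the nearest annotated start of any transcript, and 90 of them were in an intron of the gene itself. In the untreated lines 162 were called in at least 1 line, 61 (35.1%) in 1 line only and 26 (14.9%) in at least 11 lines, against 40.7% and 8.86% of all distal regions. Their median level was 3.34 CPM, against 2.09 for all distal regions. The number called per line ran from 16 in L363 (9.2%, against 6.3% of all distal regions) to 70 in H1112 (40.2%, against 34.3%). It followed the total count (r = 0.79, rho = 0.71 over 22 lines). An uncalled region in a shallow library was therefore not shown to be closed. Since a gene can have several annotated starts, the distances of single regions are given to the near edge of the start region of the gene.

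Only 2 distal regions were called in all 22 lines (1.15%, against 0.641% of all distal regions). One lay in an intron of EDEM1, which draws misfolded glycoproteins into degradation, 8994 bases from the start region (chr3:5239041-5239796), with 9.91 CPM in OPM2, a median of 29.6 and 52.9 in KMS12BM. The other lay in an intron of ERN1, 7982 bases from the start region (chr17:62198383-62199068), with 8.68 CPM in KMS12BM, a median of 22.5 and 43.1 in PE1. Per kb of region it stood at 36.1 CPM, above the 28.5 CPM of the ERN1 promoter, which is a wider region (1264 bases). In CPM not divided by width the promoter was higher, with a median of 35.1 against 22.5.

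The distal region with the highest mean CPM lay 9880 bases upstream of the start region of SPCS3, a signal peptidase subunit (chr4:177229331-177230735), in the non-coding gene RP11-87F15.2. It had a median of 43.4 CPM, a peak in 19 lines and 78.0 CPM in KMS21BM, but 1.73 CPM and no peak in Karpas620. A second region, 36583 bases downstream of the SPCS3 start region, was at 2.08 CPM in Karpas620 against a median of 26.1. CREB3L2 held regions 19076 and 652 bases from the start region, both intronic, with medians of 33.7 and 22.8 CPM, and the former was at 2.32 CPM in PCM6 and 81.6 in KMS28. SEL1L had regions 61943 and 47518 bases from the start region, the latter intronic. Their signed distances to the nearest annotated SEL1L start were 13020 and -580 bases. They had medians of 26.6 and 23.3 CPM. Their lowest values, 5.90 and 0.694 CPM, were in Karpas620, the line in which the SEL1L promoter was highest. CRELD2 had a region 17062 bases from the start region with a median of 21.8 CPM, and EIF2AK3 an intronic one 26467 bases away with a median of 23.2 CPM and 1.04 CPM in Karpas620.

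Whether lenalidomide changed the chromatin of these genes was examined in the 6 lines with both libraries, with edgeR's quasi-likelihood test on all 37732 regions that passed a filter on low counts and with the cell line as a block. Of the 213 regions, 88 passed the filter, 36 of 39 promoter and 52 of 174 distal regions. None of the 36 promoter regions was called at a Benjamini-Hochberg adjusted p below 0.05, where 2.47% of all tested promoter regions were called. DESeq2 also called none. An unadjusted edgeR p below 0.05 was found for 2 of the 36 (5.56%), against 12.1% of all tested promoter regions. The 13 starts under a neighbour's symbol were all tested and none was called, with 1 (7.69%) at an unadjusted p below 0.05. The median change of the 36 was -0.013 on the log2 scale (15 positive, 21 negative), and that of all tested promoter regions -0.020.

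HSPA5 held 54.8 to 100.2 CPM in the 6 untreated libraries (median 81.8) and 54.0 to 78.8 CPM with lenalidomide (median 71.0), and the groups overlapped. It was lower in 5 of 6 pairs and its log2 fold change was -0.17 ± 0.09 (SE, edgeR adjusted p = 0.35). HSP90B1 had a change of -0.10 ± 0.07, and all 9 chaperone starts lay between -0.17 and -0.018. Of the sensors, ATF4 had 0.24 ± 0.12 (edgeR adjusted p = 0.31), ERN1 0.095 ± 0.12, EIF2AK3 -0.008 ± 0.07, ATF6 -0.14 ± 0.14 and DDIT3 -0.13 ± 0.09. None of these passed the threshold. The own promoter nearest to it was CANX, with a median of 104.3 CPM untreated (77.7 to 128.0) and 85.5 CPM with lenalidomide (63.8 to 125.6), lower in 5 of 6 pairs at -0.24 ± 0.08 (edgeR adjusted p = 0.088). It passed without Karpas620, the 1 pair in which it was higher (edgeR adjusted p = 0.029). EDEM1 had -0.25 ± 0.08 (edgeR adjusted p = 0.059) at its shared start, and PDIA4 had -0.13 ± 0.07 (0.28). The intronic region of EDEM1, called in all 22 untreated lines, had -0.55 ± 0.19 (edgeR adjusted p = 0.082). With lenalidomide it had no peak in L363 (14.8 CPM untreated, 3.23 with lenalidomide) and OPM2 (9.91 and 3.17), and it was higher in 1 of 6 pairs.

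**Figure D4:**
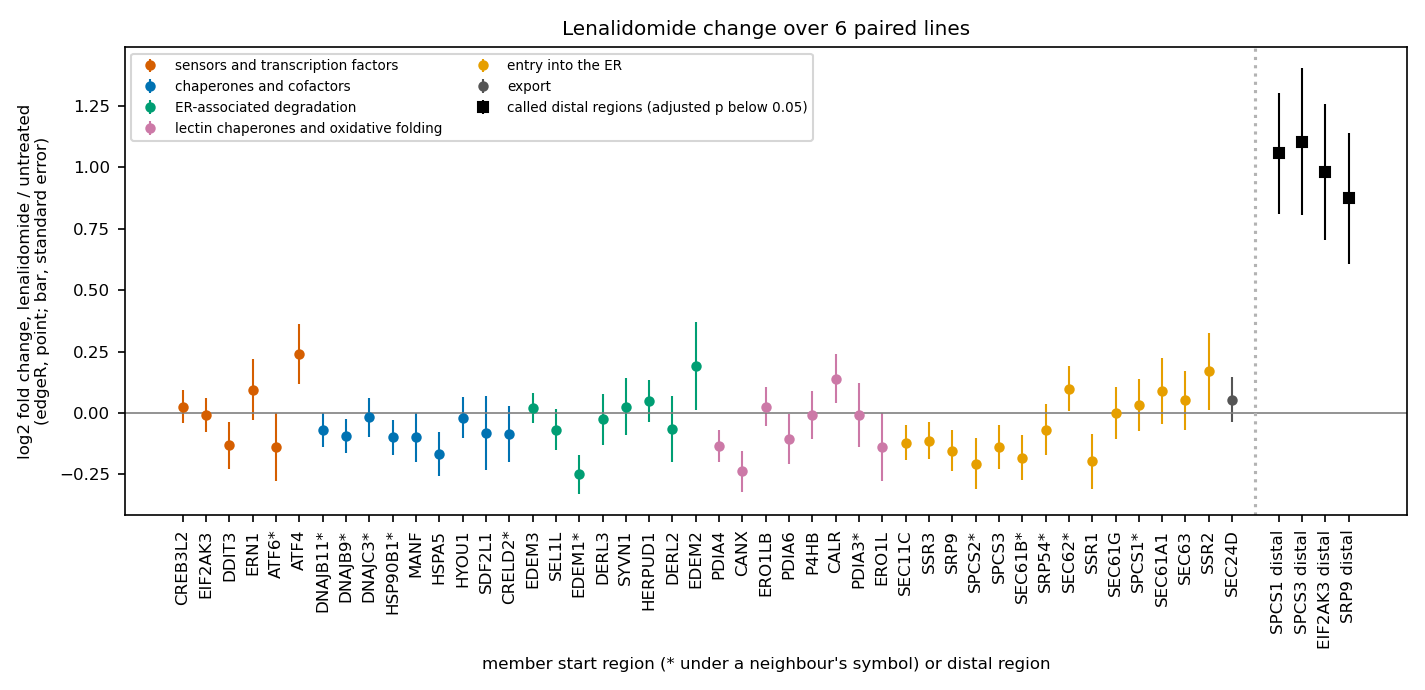
Log2 fold change of lenalidomide over untreated in 6 paired lines, from edgeR, with its standard error, for 46 start regions by role (circles, asterisk for a start under a neighbour's symbol) and the 4 distal regions called (black squares). The start regions lie between -0.25 and 0.24 and none was called, and the 4 distal regions lie between 0.87 and 1.10.

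Of the 52 tested distal regions 4 were called, and all 4 were higher with lenalidomide, where 5.35% of all tested distal regions were called as raised and 1.61% as lowered, and over all regions 5.4% were called in either direction. The count of 4 is thus near what the whole table shows and is not a result about these genes. The first lay 3731 bases from the SPCS1 start region, in an exon and the 3′ UTR of the neighbouring gene NEK4 (chr3:52744187-52744811). It had 2.43 to 10.9 CPM untreated (median 4.64) and 1.96 to 28.2 CPM with lenalidomide (median 9.93), with RPMI8226 and OPM2 highest, and it was higher in all pairs but Karpas620. Its change was 1.06 ± 0.25 (SE, edgeR adjusted p = 0.0063).

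The second lay 115757 bases from the SPCS3 start region, between genes (chr4:177357719-177358320), with 0 to 5.40 CPM untreated (median 3.01) and 0 to 20.3 with lenalidomide (median 5.07). The 0 values were both of Karpas620, the other 5 pairs were higher, and the largest value was in L363. Its change was 1.10 ± 0.30 (edgeR adjusted p = 0.022), and without L363 it was 0.76 and did not pass. The third lay in an intron of EIF2AK3, 10659 bases from the start region (chr2:88915358-88915971), at 1.42 to 9.39 CPM untreated (median 2.97) and 0.942 to 14.5 with lenalidomide (median 6.98), higher in all pairs but RPMI8226, with a change of 0.98 ± 0.28 (edgeR adjusted p = 0.028). The fourth lay 4682 bases upstream of the start region of SRP9, a subunit of the signal recognition particle (chr1:225959922-225960373), at 2.06 to 6.41 CPM untreated (median 4.38) and 3.53 to 14.1 with lenalidomide (median 8.89), also higher in all pairs but RPMI8226, with a change of 0.87 ± 0.27 (edgeR adjusted p = 0.046). The groups overlapped in all 4 regions, and their promoters in the same fit had changes of 0.032 (SPCS1), -0.14 (SPCS3), -0.008 (EIF2AK3) and -0.15 (SRP9).

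These 4 calls rested on low counts, 0 to 120 per library and region. The exact two-sided sign-flip permutation test over 6 pairs gave p = 0.0625 for SPCS1, SPCS3 and EIF2AK3 and p = 0.094 for SRP9, where the smallest p it allows is 0.0312, or 0.0625 for SPCS3, whose Karpas620 pair was equal. DESeq2 called none of the 4, and without OPM2 no region of the group was called.

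**Figure D5:**
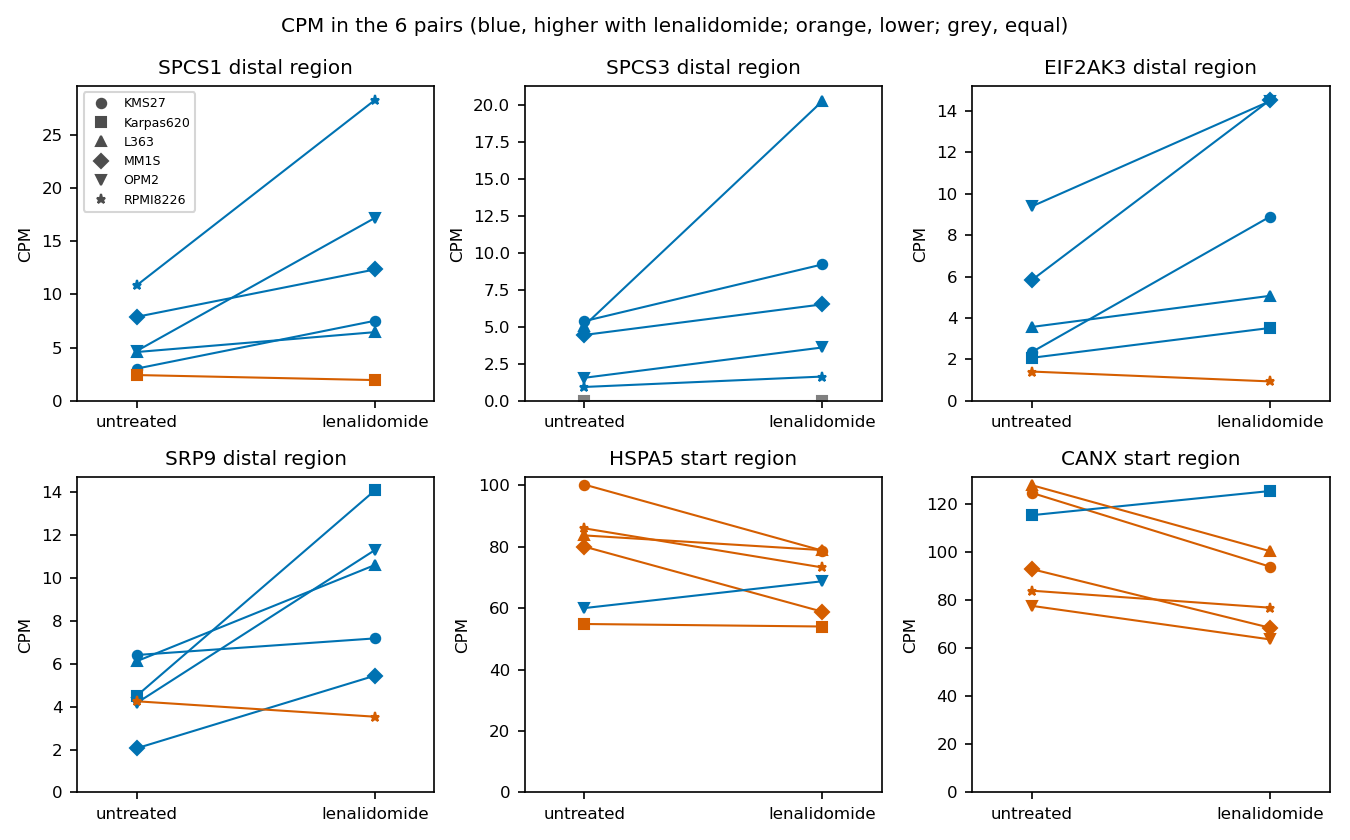
CPM in the untreated and the lenalidomide library of each of the 6 lines (1 marker per line, joined within a line; axes start at 0) for the 4 distal regions called and for the HSPA5 and CANX start regions, which were not called. In each distal region 5 of 6 lines are higher with lenalidomide (blue), with Karpas620 at 0 in both libraries for SPCS3 (grey), and in HSPA5 and CANX 5 of 6 are lower (orange).

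Other genes of the pathway were read from the same fit, from a list of 84 that included further COPII, glycosylation and translocation genes. Of these, 75 genes had 131 regions tested, of which 2 were called as raised and 2 as lowered. Both raised regions were distal to SIL1, the nucleotide exchange factor of BiP, with changes of 1.396 ± 0.27 and 1.03 ± 0.19 (edgeR adjusted p = 0.0011 and 0.00047). The lowered ones were a region 1064 bases past the start of ATF3, a stress-induced transcription factor (-0.50 ± 0.13, edgeR adjusted p = 0.012), and the promoter of SELK, a selenoprotein of ER degradation (-0.30 ± 0.09, edgeR adjusted p = 0.035). With 4 of 131 called, this list too was not above the 5.4% of the table.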

How the data were processed

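ATAC-seq was analysed for 22 untreated and 6 lenalidomide-treated libraries. The authors aligned reads to GRCh37 (Bowtie2 2.2.6, SAMtools 1.7), called peaks with MACS2 2.1.0.20151222, merged them into regions and deposited raw counts per region, with annotation and a table of whole numbers read here as called peaks. The methods share a heading with ChIP-seq, and whether duplicates were removed or read ends shifted is not given in the sources used here. Only autosomal regions are held. The deposited RPM values and peak files were not used.

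CPM is the count per 1000000 counts in regions, and per kb it is divided by region width. Levels across lines used log2(CPM + 1), with a pseudocount of 1. Lenalidomide was tested with edgeR 4.0.16 (R 4.3.3; TMM, filterByExpr by condition, quasi-likelihood test, Benjamini-Hochberg over all regions tested) in 12 libraries. Pairs share a cell line, so the line was a block. Tables and figures used Python 3.11.15 with pandas 2.3.3, scipy 1.17.1 and matplotlib 3.10.9. Wilson intervals (95%) of single libraries cover counting error only. Motifs were searched in RefSeq windows, 1 per symbol. Older symbols (ERO1L, ERO1LB) were matched through RefSeq synonyms.

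The genes, role groups, other pathway genes, markers, motifs and rule for naming were chosen with earlier results of these data known. Named were, per role, the highest and lowest level per kb and the largest SD, the sensors, HSPA5, HSP90B1, the 10 highest distal regions, those called in all lines, genes with a called lenalidomide change and genes without a promoter region; EDEM2, SEL1L, DNAJB9, SYVN1, CALR, SSR1, the genes set beside their surroundings and, for lenalidomide, CANX, PDIA4 and EDEM1 were named after their values were seen. Alternatives were DESeq2 1.42.0, no TMM, other filters, no block, each pair left out, other promoter definitions and scalings, and, added after seeing the data, scaling by regions within 1 Mb.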

Additional observations from a re-analysis of the deposited data

Results flagged for a closer look

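In the 6 lenalidomide libraries and in the 6 changes within pairs, a value far from the others (by Dixon's test at 95%) was looked for in 120 sets of named regions. It was found in 7, where chance alone gives about 1 in 20, or 6 of the 120. The 7 are thus near the number that chance gives. Levels that stood apart were EDEM2 at 29.7 CPM and CRELD2 at 45.9 CPM in RPMI8226, SEC63 at 60.3 CPM in Karpas620, SSR3 at 52.4 CPM in OPM2, where the nearest other line had 100.2, and the SEL1L distal region 61943 bases from the start region at 48.2 CPM in KMS27. Changes that stood apart were SSR3 in RPMI8226 (-0.21 on the log2 scale) and CREB3L2 in Karpas620 (0.20). None of these regions was called in the edgeR comparison. OPM2 also had the lowest SSR3 level of the 22 untreated lines (54.8 CPM), and RPMI8226 the highest untreated CRELD2 start (47.2 CPM).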

How the results depend on the processing

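With the cell line left out as a block, edgeR called 0 regions (0 raised, 0 lowered, 0 of the group), so every lenalidomide call rests on the pairing. In place of 2036 regions called (1575 raised, 461 lowered), no filter on low counts gave 4092 (3608 raised), at least 10 counts in each library 587 (472 raised, 115 lowered), DESeq2 839 (726 raised, 113 lowered), and leaving out each pair 1067 to 2503 (875 to 1919 raised, 192 to 584 lowered). The 4 calls of the group became 7 without a filter, 0 with at least 10 counts, 0 with DESeq2 and 0 to 5 when pairs were left out (0 without OPM2, 2 without KMS27, L363 or MM1S); the own promoters called were 0 to 1, the 1 being CANX without Karpas620. No named region changed direction past the threshold. Distal regions open in 1 line only were 12 and those open in all 22 lines were 20 when at least 2 CPM replaced a called peak, in place of 61 and 2, a threshold that counts regions without a peak. The median SD over lines was 0.32 after scaling by regions within 1 Mb. The other counts, levels and medians stayed within 1.5 times or within 1 SD. The causes were not tested. At 0 to 120 counts, the called distal regions are imprecise, and 122 of 174 distal regions were not tested for lack of counts.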
